A study of Mus musculus with 4 samples.

Results

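Vascular guidance ligands and receptors are the semaphorins with their plexin receptors, the ephrins with their Eph receptor kinases, the netrins with their UNC5 receptors, and the SLIT proteins with their ROBO receptors. They were chosen here by gene symbol (semaphorin classes 3 to 7, plexins A to D, ephrins A and B, EphA and EphB receptors, UNC5 A to D, ROBO, SLIT and netrin genes) and by a total of at least 20 unique molecular identifiers (UMIs, each standing for 1 captured transcript) over the 4 libraries. Of 31253 genes in the matrices, 70 symbols matched and 53 reached 20 UMIs. The ligands among these 53 members were 6 class 3, 5 class 4, 2 class 5, 4 class 6 and 1 class 7 semaphorins, 5 ephrin-A and 3 ephrin-B genes, 3 netrins and 2 SLIT genes. The receptors were 8 plexins, 4 EphA, 4 EphB, 2 UNC5 and 3 ROBO genes, and the last member was Plxna4os1, an antisense RNA inside Plxna4 whose reads are told apart from Plxna4 only by strand. The 17 symbols below 20 UMIs were Epha3, Epha5, Epha6, Epha8, Epha10, Ephb2, Ntn5, Plxnb3, Plxna4os2, Plxna4os3, Robo3, Sema3e, Sema4f, Slit1, Unc5c, Unc5d and Unc5cl, the last of which matches by name only.

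These families were first described as cues that steer growing axons, and the same pairs of ligand and receptor position and separate blood vessels. Ephrin-B2 on arterial endothelium and its receptor EphB4 on venous endothelium signal in both directions at cell contacts and keep the territories of arteries and veins apart. Class 3 semaphorins are secreted and act through plexins, mostly with a neuropilin as co-receptor, while netrin-UNC5B and SLIT-ROBO signalling restrain or stabilise endothelial sprouts.

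The data were 4 single-cell RNA libraries (10x, 3' end counting) of RFP-positive cells sorted from mouse left ventricle. In these animals the Cdh5 promoter drove a tamoxifen-inducible Cre, given with tamoxifen at 7 weeks of age, which switched on a tdTomato reporter, and the strain carried floxed alleles of SR-B1 (fl/+ or fl/fl). Mice of 2 NC libraries ate chow with 10% of energy as fat, and mice of 2 HFpEF libraries received for 20 weeks a diet with 60% of energy as fat together with 0.5 mg/ml L-NAME, an inhibitor of nitric oxide synthase, as a model of heart failure with preserved ejection fraction. The comparison asked of the members was how their levels differed between vessel types and between HFpEF and NC. Single cells were described for both diets at both SR-B1 genotypes, so the 2 libraries fed alike would differ in genotype and not be replicates of 1 condition. The sample labels used here do not say which library had which genotype or how many mice it held, and p-values measure only the spread between libraries, which then includes any difference by genotype.

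After filtering, 39829 of 41843 deposited cells were kept, of which NC libraries gave 7114 and 6687 and HFpEF libraries 5440 and 20588. The median UMI count per kept cell was 3753 and 4125 in NC and 1736 and 1618 in HFpEF. Pairs of libraries shared 10 to 42 cell barcodes, at most 0.728% of the smaller library. Clusters were assigned by fixed markers, with no member among the clustering genes, to capillary (25726 cells), artery (6654), vein (1497), mural (1560), endocardial (152) and lymphatic (98) classes. The capillary class took the endothelial clusters that met no marker rule of another class, without a threshold on capillary markers of its own. A further 3534 cells in a cluster led by cardiomyocyte genes were kept out of the capillary class. Levels are given as CPM, the UMIs of a gene scaled to the UMI total of that class in each library, in the order NC 1, NC 2, HFpEF 1 and HFpEF 2. Because the classes are clusters of these same cells, differences between classes are described without a test.

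The class labels were checked against their markers. The artery list summed to 1265 to 1481 CPM in artery cells and at most 162 CPM in capillary cells, and the vein list to 1433 to 1899 CPM in vein cells and 52.1 to 65.8 CPM in capillary cells. The capillary list summed to 29180 to 34890 CPM in artery and 26010 to 37110 CPM in vein cells, against 38000 to 50210 CPM in capillary cells. Vein subclusters of 317, 311, 208 and 152 cells lay above the median vein subcluster in the capillary list and below it in the vein list. For the last, led by Gm34455, the capillary list was higher by only 0.05 on the log2 scale. Artery subclusters of 1307, 970 and 809 cells lay above the median artery subcluster in the capillary list and below it in the artery list. The part of such cells in ratios to capillary cells and in the diet fits was not tested. The mural class also carried 5 pan-endothelial genes at 1916 to 2126 CPM, against 3576 to 4239 CPM in capillary cells, and only 348 of its 1560 cells were low in endothelial markers. The endocardial class carried all 5 fibroblast markers (3701 to 5053 CPM in sum) and the vein list (8136 to 9690 CPM), and its marker Hapln1 was at 0. The lymphatic class expressed Prox1, Lyve1, Mmrn1, Pdpn and Reln (4416 to 7278 CPM in sum). Ccl21a came first among the top genes of its cluster. The marker sums read a row of that symbol that was at 0, so sums of the lymphatic list leave Ccl21a out in every class. Endocardial cells numbered 12 in HFpEF 1 and lymphatic cells 12 to 53 per library, so both classes are described by levels only.

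The ephrin-B2 and EphB4 pair had opposite orders along the vessel tree. Efnb2 (chr8:8617434-8661242 of GRCm38, minus strand), the membrane-bound ligand that marks arterial endothelium, measured 442, 463, 459 and 455 CPM in artery cells. It measured 212, 203, 229.8 and 218 CPM in capillary cells and 60.8, 51.0, 64.1 and 83.6 CPM in vein cells. The values of the 3 classes did not overlap, and the artery to capillary log2 ratio was 1.07 ± 0.08 (SD, n = 4 libraries) while the vein to capillary ratio was -1.74 ± 0.26.

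Ephb4 (chr5:137350109-137378669, plus strand), the receptor kinase that marks veins, measured 212, 194, 131 and 186 CPM in vein cells. Capillary cells held 105, 103, 87.7 and 95.5 CPM and artery cells 97.2, 78.9, 77.2 and 87.9 CPM. Vein cells were highest of these 3 classes in each library (log2 ratio to capillary 0.86 ± 0.20, SD, n = 4), and artery cells lay just under capillary cells (-0.20 ± 0.13). Summed over the 4 libraries, Ephb4 was at 152 CPM in lymphatic and 124 CPM in endocardial cells, where Efnb2 was at 170.2 and 225 CPM.

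Sema3g (chr14:31217860-31230352, plus strand), a secreted class 3 semaphorin of arterial endothelium, was highest in artery cells and almost absent from vein cells. Artery cells held 374, 371, 311 and 285 CPM, capillary cells 36.1, 23.0, 26.8 and 31.8 CPM, and vein cells 4.83, 1.52, 5.13 and 10.5 CPM. The artery to capillary log2 ratio was 3.47 ± 0.35 and the vein to capillary ratio -2.40 ± 0.74 (SD, n = 4), with vein values resting on 2 to 20 UMIs. No Sema3g UMI was seen in lymphatic cells, where 3 counts would correspond to 6.90 CPM. Mural cells held 295, 241, 169 and 165 CPM, but the 348 mural cells low in endothelial markers held 38.1 CPM over all libraries.

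Promoter windows of these 3 genes, from 250 bases before to 50 after the RefSeq start (GRCm38.p6), are shown because they hold the arterial and venous ends of the gradient. Capitals mark matches on either strand to TGGGAA, the core site of RBPJ, the DNA-binding partner of Notch in arterial endothelium. TGGGAA occurred in 25.6% of 32851 promoters of the same length and in 15 of 61 promoters of the 45 members with an entry. These 15 promoters belonged to 14 members.
Efnb2, chr8:8661193-8661492, minus strand: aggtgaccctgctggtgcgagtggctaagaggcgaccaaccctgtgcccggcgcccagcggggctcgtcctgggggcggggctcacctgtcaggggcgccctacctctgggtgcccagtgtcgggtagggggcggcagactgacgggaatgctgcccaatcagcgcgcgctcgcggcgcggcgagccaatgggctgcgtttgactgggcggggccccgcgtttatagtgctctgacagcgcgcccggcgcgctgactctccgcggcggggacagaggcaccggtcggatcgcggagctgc
Ephb4, chr5:137349859-137350158, plus strand: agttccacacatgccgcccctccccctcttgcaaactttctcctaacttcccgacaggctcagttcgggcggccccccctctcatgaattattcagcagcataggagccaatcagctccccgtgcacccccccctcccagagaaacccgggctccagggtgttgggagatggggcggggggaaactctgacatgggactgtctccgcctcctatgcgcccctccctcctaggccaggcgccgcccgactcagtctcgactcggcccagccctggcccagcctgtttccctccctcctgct
Sema3g, chr14:31217623-31217922, plus strand: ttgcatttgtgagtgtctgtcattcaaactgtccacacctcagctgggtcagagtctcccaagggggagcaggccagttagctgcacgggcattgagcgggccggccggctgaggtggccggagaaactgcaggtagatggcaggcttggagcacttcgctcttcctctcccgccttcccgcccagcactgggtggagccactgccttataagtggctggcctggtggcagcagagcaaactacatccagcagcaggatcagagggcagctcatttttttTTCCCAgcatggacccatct
The window of Sema3g held 1 match, on the opposite strand at position 31 after the start, and those of Efnb2 and Ephb4 held none. A match is a description of the letters and not of binding, and 8 members had no promoter entry.

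**Figure D1:**
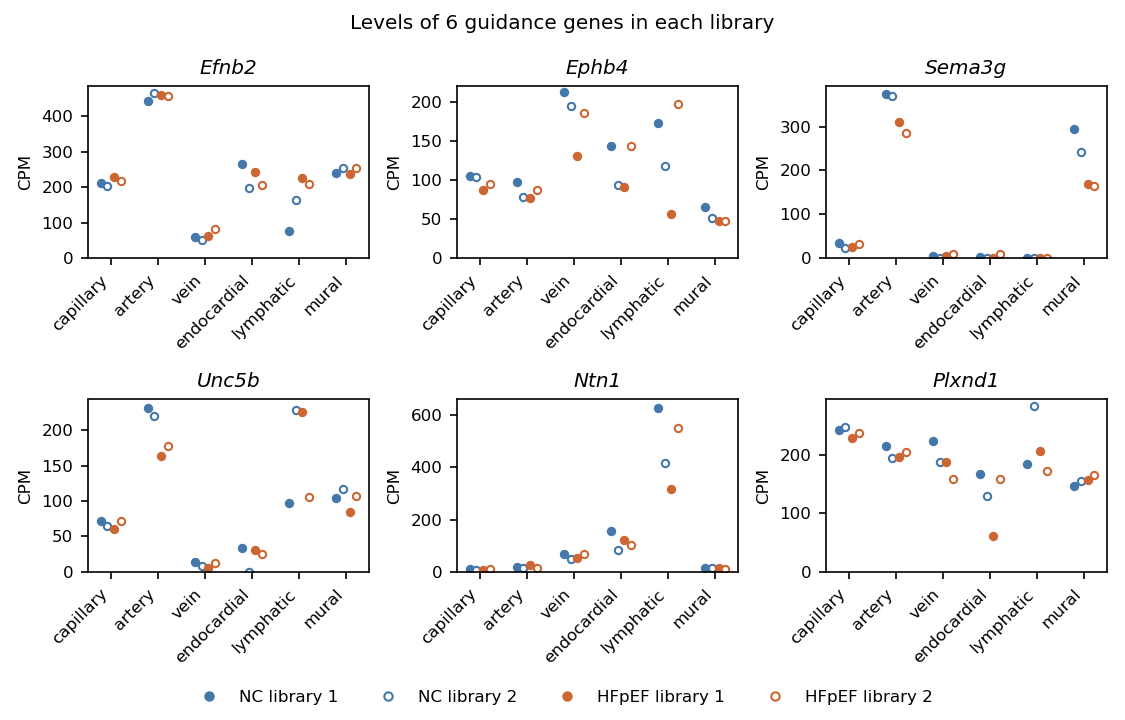
Levels of 6 guidance genes (CPM, vertical axes) in the 6 cell classes; each point is 1 library, blue for NC and orange for HFpEF, filled for replicate 1 and open for replicate 2. Efnb2, Sema3g and Unc5b were highest in artery cells among artery, capillary and vein cells, Ephb4 in vein cells, and Ntn1 reached 319 to 628 CPM in lymphatic cells.

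Unc5b (chr10:60762593-60831581, minus strand), the netrin receptor of arterial and sprouting endothelium, followed the same direction as Efnb2. It measured 232, 219.5, 164 and 177 CPM in artery cells, 71.8, 65.0, 61.1 and 71.6 CPM in capillary cells, and 14.5, 8.38, 5.13 and 12.6 CPM in vein cells. The log2 ratio to capillary cells was 1.53 ± 0.21 in artery and -2.70 ± 0.49 in vein cells (SD, n = 4). Epha4, a receptor that binds ephrins of both classes, also lay above capillary cells in artery cells (0.95 ± 0.16), as did Sema7a, a GPI-anchored semaphorin (0.71 ± 0.12). In vein cells Sema7a lay below capillary cells (-1.38 ± 0.08).

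Of 24 members with at least 10 CPM in artery or capillary cells, 3 were more than 2-fold above capillary cells in artery cells of every library. They were Sema3g, Unc5b and Ntn4, a laminin-related netrin, and none was more than 2-fold below. Efnb2 joined them when HFpEF 1 was left out and when the expected share of doublets was removed. In vein cells 5 of 25 members were more than 2-fold above capillary cells in every library (Ntn1, Plxnb2, Sema3a, Sema3d and Sema3f) and 4 were below (Efnb2, Sema3g, Sema7a and Unc5b). With each cell assigned by its own marker counts, Sema3f left the first group and Efnb2 and Sema7a the second, which left 4 and 2 members. The venous group consisted of a netrin, 3 secreted semaphorins and a plexin, whereas all 4 lower genes had artery levels above capillary levels. The share of all genes beyond 2-fold by the same rule was not counted, here or for the classes below. These counts therefore do not set the members apart from other genes.

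Sema3f, whose product binds neuropilin-2, measured 186, 108, 133 and 169 CPM in vein cells, against 73.0, 41.0, 54.3 and 68.5 CPM in capillary cells. Sema3d is a secreted semaphorin that acts on endothelium through neuropilin-1. It measured 32.4, 16.8, 69.2 and 59.4 CPM in vein cells and 0.304 to 1.60 CPM in capillary cells. Both genes were higher still in the lymphatic class, at 350 and 347 CPM over all libraries. The lymphatic marker list without Ccl21a summed to 8.38 to 49.4 CPM in vein cells. The part of lymphatic RNA in the vein values was not tested.

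Lymphatic cells carried a set of secreted ligands. Ntn1, the founding netrin, measured 628, 417, 319 and 549.9 CPM there (17 to 89 UMIs per library), against 7.41 to 12.4 CPM in capillary cells and 50.3 to 69.7 CPM in vein cells. Sema3a, which repels through neuropilin-1 and plexin-A1, measured 184, 189, 169 and 185 CPM in lymphatic cells and under 1 CPM in capillary cells (0.608 to 0.861). Among 28 members with at least 10 CPM, 6 were more than 2-fold above capillary cells in every library (Ntn1, Ntn4, Sema3a, Sema3d, Sema3f and Sema4d). Another 5 were below (Efnb1, Epha4, Robo2, Sema3g and Sema7a). In single lymphatic libraries 3 UMIs correspond to 18.5 to 56.2 CPM. The place of Robo2 below, at 11.3 to 22.5 CPM across capillary subclusters, therefore cannot be told from a lack of counts. For Sema3g the same limit applies within single libraries. Sema6a, a transmembrane semaphorin that binds plexin-A2 and plexin-A4, measured 368, 220.3, 299.8 and 352 CPM in lymphatic cells and 181, 205, 211 and 179 CPM in capillary cells.

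Endocardial cells combined Efnb2 with a set of genes almost absent from capillary cells. Epha7, an EphA receptor, measured 167, 160.1, 151 and 118 CPM there (5 to 44 UMIs) and at most 0.261 CPM in capillary cells. Plxnc1, the plexin that binds semaphorin 7A, measured 64.4, 63.3, 90.7 and 76.9 CPM, was at 0 in artery and lymphatic cells, and stayed at or below 0.574 CPM in capillary cells. Of 30 members with at least 10 CPM, 5 were more than 2-fold above capillary cells in every library (Epha7, Ntn1, Ntn4, Plxnb2 and Plxnc1), and 8 were when HFpEF 1 was left out. Assigning each cell by its own marker counts left 1, 4, 2 and 8 endocardial cells, too few for such a count. The gene of the PLXNC1 ligand, Sema7a, was at 7.89 CPM in endocardial cells over all libraries, against 147 CPM in capillary cells. Slit3, a secreted ligand of ROBO receptors, was at 52.6 CPM over all libraries, and the fibroblast-list genes carried by this class leave the source of such genes not tested.

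The highest members of the mural class were Efnb2, Sema3g and Plxnd1 (means of 246, 218 and 156 CPM), which endothelial classes also held. Of 28 members with at least 10 CPM, 7 were more than 2-fold above capillary cells in every library (Ntn4, Plxna1, Plxnb1, Plxnb2, Sema3g, Sema5a and Slit3). Plxnb2, a receptor for class 4 semaphorins, measured 66.9, 59.2, 51.6 and 38.5 CPM in the mural class and 2.30 to 3.04 CPM in capillary cells. Sema5a, a transmembrane semaphorin with thrombospondin repeats, measured 49.6, 57.9, 54.4 and 49.8 CPM against 0.0977 to 0.574 CPM. In the 348 mural cells low in endothelial markers these values were higher, at 108 CPM for Plxnb2 and 99.6 CPM for Sema5a over all libraries, and Sema6d, a transmembrane semaphorin that binds plexin-A1, was at 162 CPM. Robo4, the endothelial ROBO receptor, went in the opposite direction with 6.36 CPM in those cells against 82.3 CPM in the whole mural class. Robo1, another SLIT receptor, measured 1.29 to 4.22 CPM in the mural class and was at 0 in artery, vein, endocardial and lymphatic cells. Over all libraries 3 UMIs correspond to 3.94 CPM in endocardial and 6.90 CPM in lymphatic cells. The 0 in these 2 classes therefore cannot be told from a lack of counts.

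Plxnd1, Plxna2 and Efnb1 differed by less than 2-fold between capillary and artery cells of each library. Plxnd1, the plexin of endothelial cells that receives class 3 semaphorins, measured 243, 248, 229 and 237 CPM in capillary cells, 215, 195, 196 and 205 CPM in artery cells, and 224, 187, 187 and 159 CPM in vein cells. Its capillary and artery values did not overlap, while vein values overlapped artery values. Plxna2, a receptor for class 6 semaphorins, measured 135 to 153 CPM in capillary, 131 to 188 CPM in artery and 82.1 to 98.8 CPM in vein cells. Efnb1, another ephrin-B ligand, measured 202, 186, 176 and 207 CPM in capillary cells and 238, 192, 190.3 and 257 CPM in artery cells, and was more than 2-fold below capillary cells in endocardial and lymphatic cells of every library. Slit2 and Sema3c stayed at or under 0.163 and 0.781 CPM in capillary cells.

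**Figure D2:**
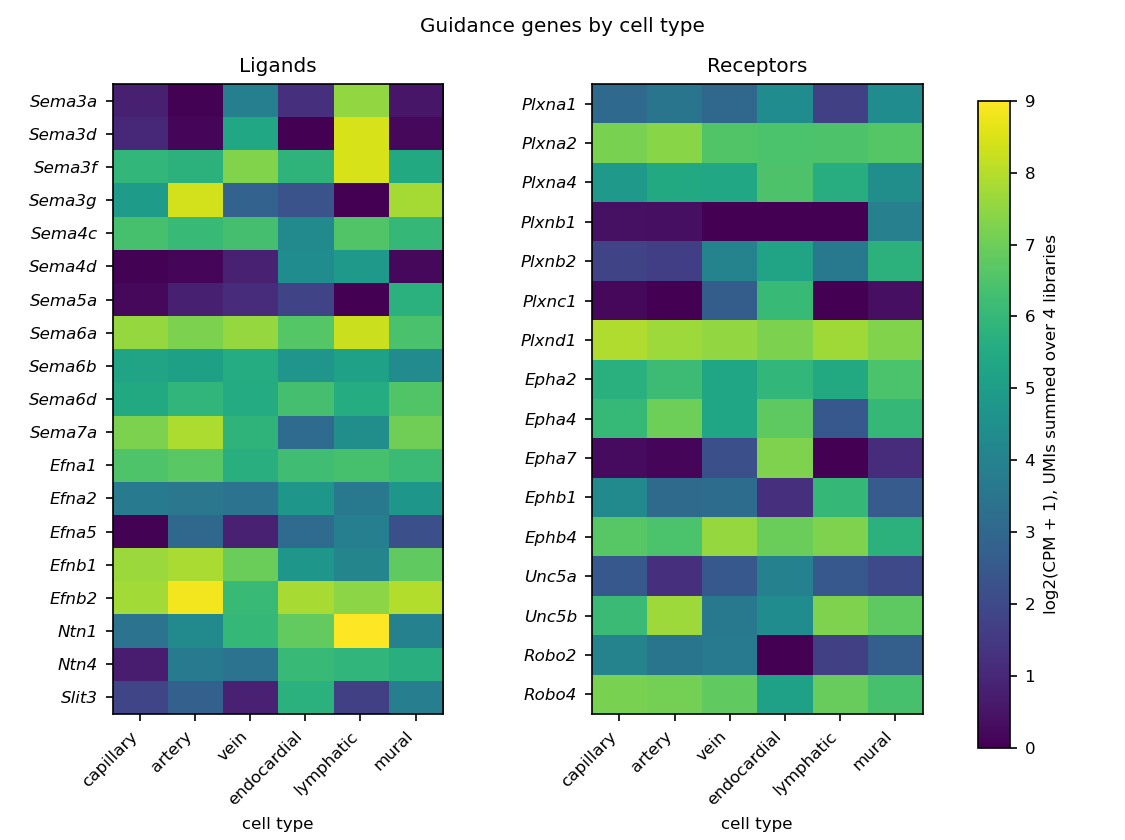
Heat map of log2(CPM + 1) from UMIs summed over the 4 libraries, with ligands on the left, receptors on the right and the 6 cell classes as columns; genes reaching 10 CPM in any class are drawn. Lymphatic cells stand out in Ntn1 (499 CPM), endocardial cells in Epha7 (151 CPM) and artery cells in Sema3g (334 CPM).

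Across the 24 sums of a library and class, each gene was set beside the others by Spearman's rho of log2(CPM + 1), as a description in which sums of a library share their depth. The members most like Efnb2 were Sema3g (rho 0.661), Epha4 (0.642) and Unc5b (0.615), and the least like it was Ephb4 (-0.677). Sema3g was most like Sema7a (0.913) and Efnb1 (0.792). Ephb4 was most like Sema3f (0.604) and Sema6b (0.593), and Unc5b was most like Efnb2 and least like Plxnc1 (-0.817).

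Artery cells themselves fell into a cluster of 857 cells with Mgp, Clu, Fbln5 and Gja5 among its top genes and 5797 other artery cells, and the members differed between them. Against the median endothelial cluster, the mean log2(CPM + 1) of the 857 cells was higher by 5.07 for the artery list. It was also higher by 2.37 for the vein, 1.49 for the endocardial and 1.18 for the mural list. The part of those lists' cells in the ratios below was not tested. Sema3g measured 822, 849, 759 and 669 CPM in the cluster against 307, 239, 244 and 218 CPM in the other artery cells, a log2 ratio of 1.62 ± 0.17 (SD, n = 4). Efna5, a GPI-anchored ephrin-A ligand, measured 27.4, 34.2, 45.7 and 51.8 CPM against 0.839 to 1.38 CPM. Of the netrins, Ntn1 and Ntn4 went the same way in each library (log2 ratios of 2.76 ± 0.11 and 2.99 ± 0.16), as did Sema3f (1.44 ± 0.16). Efnb1 and Unc5b went the opposite way, at -1.32 ± 0.16 and -0.98 ± 0.26. Ntn1 and Ntn4 thus lay on the opposite side of the ratio from Unc5b in 4 of 4 libraries. The other netrin member, Ntn3, stayed at or under 2.07 CPM in both kinds, with a log2 ratio of -0.23 ± 1.01.

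**Figure D3:**
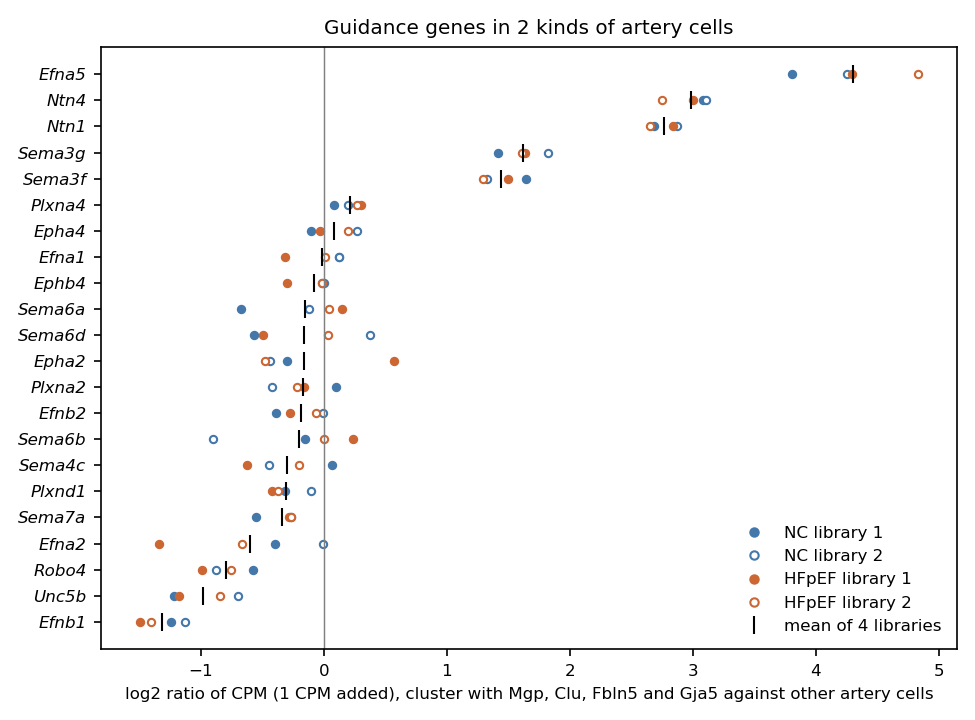
Log2 ratio of CPM (1 CPM added) between artery cells of the cluster with Mgp, Clu, Fbln5 and Gja5 among its top genes and the other artery cells; each point is 1 library, blue for NC and orange for HFpEF, and the bar is the mean of 4 libraries. Efna5, Ntn4, Ntn1 and Sema3g lie above 0 and Efnb1 and Unc5b below it in every library.

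The diets were compared within each class by edgeR's quasi-likelihood test on UMIs summed per library, with Benjamini-Hochberg adjustment over all genes tested in the class. The filter on low counts passed 37 members in capillary, 33 in artery, 26 in vein and 30 in mural cells. At an adjusted p under 0.05 no member was called in any of the 4 classes. Over all genes tested, 0.00812% were called in capillary, 0.073% in artery, 0.478% in vein and 0.608% in mural cells, so calls were rare throughout. DESeq2 called 3 members in capillary cells (Epha2, Sema6d and Efna1), where it called 1.57% of genes, and 0 in artery, vein and mural cells, where it called 0.201%, 0.09% and 0.102% of genes. Without the filter on low counts edgeR called 4 members in capillary (4.38% of genes), 3 in artery (1.86%), 3 in vein (1.3%) and 1 in mural cells (1.24%). DESeq2 and the unfiltered fit each tested 52 members in capillary, 50 in artery, 50 in vein and 53 in mural cells.

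At an unadjusted p under 0.05, 7 of 37 members passed in capillary cells (5 higher and 2 lower in HFpEF), where 19.8% of all genes did. The counts were 8 of 33 in artery cells (3 higher, 5 lower; 11.7% of all genes), 7 of 26 in vein cells (all 7 higher; 11.2%, and 6.19% in that direction) and 3 of 30 in mural cells (1 higher, 2 lower; 11%). The median log2 fold change of tested members was 0.0048 in capillary, 0.0596 in artery, 0.053 in vein and 0.026 in mural cells, and that of all tested genes lay between -0.0055 and 0.0005. After the TMM scaling of library totals used in the fit, NC and HFpEF libraries did not overlap for 22 of 37 members in capillary cells, where 51.9% of all genes did not. Levels printed for single members are CPM without that scaling, so a near tie can fall on the other side. The share was 45.5% of members against 44.2% of genes in artery, 42.3% against 42.3% in vein and 43.3% against 40.9% in mural cells. A p that misses the threshold does not show that levels were equal, and the 4 classes of a library are not independent of each other.

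Among ligands in capillary cells, Sema6d measured 27.5 and 35.4 CPM in NC against 44.5 and 57.5 CPM in HFpEF. The log2 fold change was 0.72 (SE 0.16), with an adjusted p of 0.0994 by edgeR. The same gene was higher in both HFpEF libraries in artery cells (45.1 and 49.0 against 62.3 and 77.2 CPM; 0.61, SE 0.14, adjusted p = 0.192) and in vein cells (32.4 and 26.7 against 66.7 and 63.6 CPM; 1.10, SE 0.24, adjusted p = 0.0592). In mural cells its values overlapped, at 92.7 and 90.1 CPM in NC against 107 and 92.0 CPM in HFpEF. Sema6d lies at chr2:124089969-124667770 on the plus strand.

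Efna1 (chr3:89271733-89281142, minus strand), a GPI-anchored ligand of EphA2 known for its induction by inflammatory cytokines, was lower in both HFpEF libraries of capillary cells, at 77.1 and 76.6 CPM against 102 and 109.6 CPM. Its log2 fold change was -0.46 (SE 0.10, edgeR adjusted p = 0.0998). In artery cells it measured 121 and 117 CPM in NC against 77.8 and 85.9 CPM in HFpEF (-0.52, SE 0.12, adjusted p = 0.190). In vein cells the diets overlapped, at 50.4 and 51.0 CPM in NC against 53.9 and 44.7 CPM in HFpEF. Slit3 in capillary cells was at 0.963 and 1.73 CPM in NC against 4.02 and 4.00 CPM in HFpEF, from 19 to 123 UMIs (1.58, SE 0.32, adjusted p = 0.0838).

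Epha2 (chr4:141301240-141329384, plus strand), the receptor kinase of ephrin-A1, was higher in both HFpEF libraries of capillary cells. It measured 40.9 and 34.9 CPM in NC against 52.1 and 69.4 CPM in HFpEF, with a log2 fold change of 0.70 (SE 0.15, edgeR adjusted p = 0.0960). Its promoter window is shown for comparison with the genes above, with capitals marking AGGTCA, the half-site of nuclear receptors (16.3% of promoters), and TGACGTCA, the site of CREB family factors (1.79% of promoters), on either strand.
Epha2, chr4:141300971-141301270, plus strand: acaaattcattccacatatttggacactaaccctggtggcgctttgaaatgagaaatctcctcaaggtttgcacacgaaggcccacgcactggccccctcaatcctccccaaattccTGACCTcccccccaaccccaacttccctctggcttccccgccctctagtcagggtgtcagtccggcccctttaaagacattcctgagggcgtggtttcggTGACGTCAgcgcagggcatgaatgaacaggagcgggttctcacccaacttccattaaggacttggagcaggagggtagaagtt
The AGGTCA match began at position -133, on the opposite strand, and TGACGTCA, which reads the same on both strands, at -33. Epha2 was the only one of 45 members with a TGACGTCA match.

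In artery cells Epha2 measured 67.7 and 65.2 CPM in NC against 58.7 and 79.3 CPM in HFpEF, so the diets overlapped. The difference of the diet change between artery and capillary cells was tested directly, in a fit with library as a block, and was -0.63 on the log2 scale for Epha2 (SE 0.11, edgeR adjusted p = 0.00404). Unc5b was the other member called in that test (-0.38, SE 0.09, adjusted p = 0.0444), so 2 of 35 members were called where 0.576% of all genes were, and 7 passed at an unadjusted p under 0.05, where 8.69% of genes did. For vein minus capillary no member was called (0.488% of genes), and 2 of 35 passed at an unadjusted p under 0.05 (6.16% of genes). Unc5b was lower in HFpEF artery cells at 164 and 177 against 232 and 219.5 CPM (-0.38, SE 0.11, adjusted p = 0.247), with overlapping diets in capillary cells. Neither call held when each cell was assigned by its own marker counts (edgeR adjusted p = 0.731 for Epha2 and 0.814 for Unc5b). That assignment called 5 genes in all in this test, against 67 in the main fit. Neither call held without HFpEF 2 either, and that of Unc5b was also lost without NC 2. Over the 7 alternatives the difference was -0.72 to -0.43 for Epha2 and -0.42 to -0.30 for Unc5b.

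Heat shock genes moved with the diet in these cells. The sum of Hspa1a, Hspa1b, Dnajb1 and Hsph1 in capillary cells was 5415 and 3257 CPM in NC against 11640 and 13710 CPM in HFpEF, and in artery cells 5761 and 3163 against 10070 and 13230 CPM. Without the capillary cluster led by heat shock genes, the log2 fold change was 0.63 (SE 0.15) for Epha2, 0.78 (SE 0.15) for Sema6d and -0.48 (SE 0.10) for Efna1. A cluster of 3019 cells with Hsph1 among its top genes stayed in that fit. The part of heat shock genes in these changes was therefore not tested. With every cell thinned to at most 1500 UMIs, which leaves cells of fewer UMIs as they were, Epha2 and Sema6d were at 0.76 and 0.76, with edgeR adjusted p of 0.0499 and 0.0394.

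**Figure D4:**
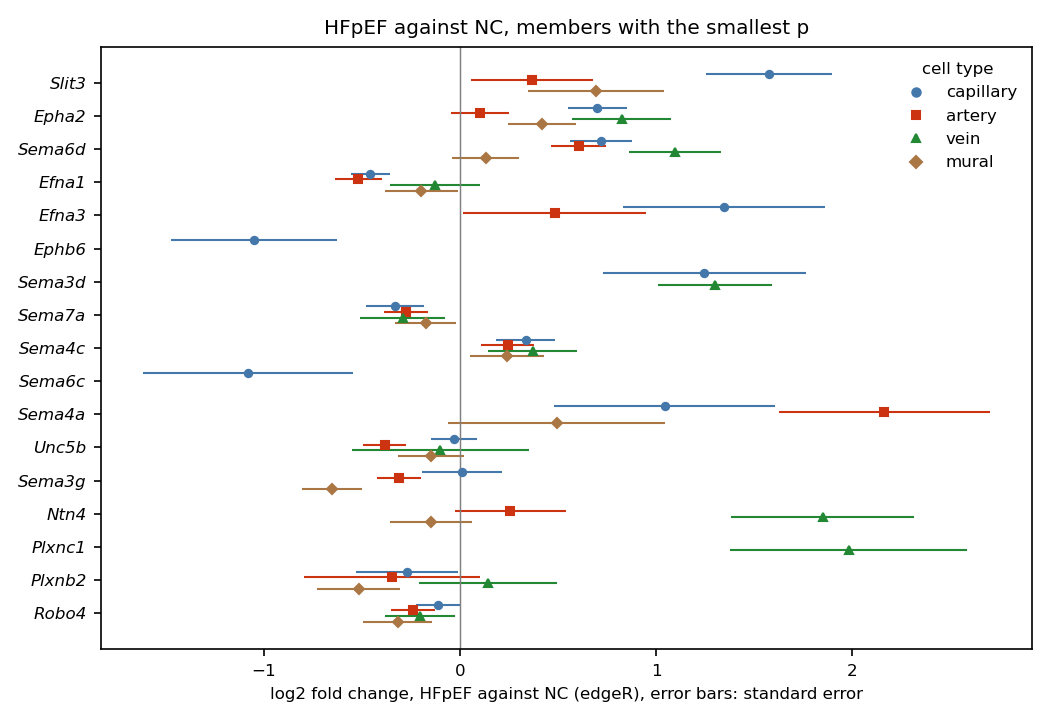
Log2 fold change of HFpEF against NC (horizontal axis, edgeR, bars are standard errors) for the members with the smallest p in each class; circles are capillary, squares artery, triangles vein and diamonds mural cells. Sema6d lies at 0.72 in capillary, 0.61 in artery and 1.10 in vein cells and Efna1 at -0.46 in capillary and -0.52 in artery cells, and no point passed the adjusted threshold.

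The remaining members with small p in capillary cells had few UMIs or small changes. Efna3 (1.35, SE 0.515), Sema3d (1.25, SE 0.52), Ephb6 (-1.05, SE 0.42) and Sema6c (-1.08, SE 0.53) rested on 1 to 49 UMIs per library. Sema3d was at 2.22 without NC 1 and 0.66 without NC 2, and Sema6c at -2.65 without HFpEF 2. Sema7a measured 178 and 142 CPM in NC against 113 and 139.5 CPM in HFpEF (-0.33, SE 0.15, edgeR adjusted p = 0.268), and Sema4c, a transmembrane class 4 semaphorin, 75.0 and 65.5 against 74.6 and 101 CPM (0.34, SE 0.15). Sema7a was at -0.16 without NC 1 and -0.21 without HFpEF 1, and Sema4c at 0.51 without HFpEF 1 and 0.11 without HFpEF 2. Efnb2, Ephb4 and Plxnd1 did not pass at an unadjusted p under 0.05 in capillary cells.

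In artery cells Sema3g measured 374 and 371 CPM in NC against 311 and 285 CPM in HFpEF, with no overlap (-0.31, SE 0.11, edgeR adjusted p = 0.360). Its value was -0.13 (SE 0.156) with each cell assigned by its own marker counts. Sema4a, a class 4 semaphorin, was at 0.891 and 1.15 CPM in NC against 7.78 and 3.52 CPM in HFpEF, from 5 to 29 UMIs (2.16, SE 0.54, adjusted p = 0.208). Its HFpEF values were both above NC, and in the cluster with Mgp and Clu they were 36.6 and 16.5 CPM against 2.74 and 3.04 CPM.

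All 7 vein members at an unadjusted p under 0.05 were higher in HFpEF. Besides Sema6d these included Sema3d at 32.4 and 16.8 against 69.2 and 59.4 CPM (1.30, SE 0.29, edgeR adjusted p = 0.0722) and Epha2 at 33.1 and 24.4 against 56.4 and 50.5 CPM (0.83, SE 0.25, adjusted p = 0.236). Ntn4 was at 3.45 and 5.33 against 12.8 and 17.4 CPM (1.85, SE 0.47) and Plxnc1 at 2.07 and 2.28 against 7.69 and 9.46 CPM (1.98, SE 0.61), each from 3 to 33 UMIs. In vein cells the endocardial, lymphatic and fibroblast marker lists were also higher in HFpEF. The vein list itself was higher too (1475 and 1433 CPM in NC against 1726 and 1899 CPM in HFpEF). The capillary list was lower (31500 and 37110 against 26010 and 26920 CPM), and the artery and mural lists overlapped. The endocardial list summed to 109.1 and 103 against 192 and 156 CPM, and the fibroblast list to 131 and 78.4 against 541 and 182 CPM. The lymphatic list, with Pdpn at 0 and Ccl21a left out, summed to 18.0 and 8.38 against 25.6 and 49.4 CPM. When each cell was assigned by its own marker counts, Ntn4 was at 0.25 (SE 0.39) and Plxnc1 at 0.77 (SE 0.39), while Sema3d was at 1.69 (SE 0.35) and Sema6d at 0.97 (SE 0.23). A vein subcluster of 72 cells led by Postn and Dcn held 7 and 11 NC cells and 12 and 42 HFpEF cells. On the log2 scale it lay above the median vein subcluster by 6.01 in the fibroblast and 3.96 in the endocardial list. The part of cells with those markers in the member values was otherwise not tested.

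In mural cells Sema3g was lower in both HFpEF libraries, at 169 and 165 CPM against 295 and 241 CPM (-0.65, SE 0.15, edgeR adjusted p = 0.0528). The artery list moved with it, from 1228 and 1222 CPM in NC to 909.6 and 906 CPM in HFpEF, and its part in the result was not tested. In the mural cells low in endothelial markers Sema3g was at 82.4 and 35.2 CPM in NC against 12.6 and 18.4 CPM in HFpEF, from 1 to 16 UMIs. Plxnb2 passed at an unadjusted p under 0.05 in mural cells but was not called (-0.52, SE 0.21, edgeR adjusted p = 0.374). Its value was -0.23 (SE 0.30) without HFpEF 2. Epha2 measured 76.6 and 74.2 against 87.9 and 106 CPM in mural cells (0.42, SE 0.17, adjusted p = 0.382), and its value was 0.27 without HFpEF 2.

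The capillary class was made of 10 subclusters with different shares of NC and HFpEF cells, so the levels were also read within each. Subclusters are named by their leading genes, and members were left out of the genes that defined them. Plxnd1 was highest in the subcluster led by Pgf, the chemokine gene Ccl2 and Apln, a gene of sprouting tip cells (388 ± 28.5 CPM, SD, n = 4), and lowest in the one led by Gsn and Hspa1b (179 ± 45.7 CPM). Efnb2, Unc5b, Sema3g, Epha4 and Efnb1 were highest in the subcluster led by Pth1r and Hey1, a Notch target of arterial endothelium, at 330.4 ± 35.6, 119 ± 24.2, 69.7 ± 25.6, 101 ± 22.3 and 256 ± 37.4 CPM. The subcluster led by Vegfc and Pi16 was highest in Sema3f (97.9 ± 27.9 CPM) and Ntn1 (21.1 ± 8.61 CPM) and lowest in Unc5b (33.8 ± 12.9 CPM).

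Epha2 was highest in subcluster 3, led by Hsph1 and Arc (91.5 ± 35.2 CPM), and in subcluster 4, led by Il6, Adamts4 and Hsph1 (83.1 ± 11.9 CPM), against 22.1 ± 4.18 CPM in subcluster 2, led by Timp4, Apoe and Aqp1. Subcluster 3 held 95 and 46 NC cells and 443 and 2386 HFpEF cells, and subcluster 2 held 1273 and 1283 against 260 and 321. With each subcluster weighted equally in each library, Epha2 was at 45.9 and 46.9 CPM in NC against 49.3 and 59.0 CPM in HFpEF, a log2 ratio of 0.22 against 0.70 for the whole class. Sema6d was at 31.6 and 42.0 against 46.1 and 54.5 CPM (0.45), with the HFpEF mean above the NC mean in 9 of 10 subclusters.

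The diets overlapped for Unc5b in the whole class but not with subclusters weighted equally. It was at 87.8 and 88.0 CPM in NC against 62.9 and 63.2 CPM in HFpEF with equal weights (log2 ratio -0.48), and lower in HFpEF in 10 of 10 subclusters, against -0.03 for the whole class. Sema7a was at 182 and 156 against 112 and 125 CPM (-0.51, against -0.33 for the whole class, where the diets did not overlap either). Sema6b, a class 6 semaphorin, was at 48.9 and 33.1 against 20.2 and 33.3 CPM (-0.61), with overlapping diets. The HFpEF mean of both was lower in 10 of 10 subclusters. That of Efna1 was lower in 9 of 10 (-0.32, against -0.46 for the whole class). These are ratios of group means without a test, the subclusters share the same 4 libraries, and NC libraries gave only 46 to 108 cells to subclusters 0 and 3.

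**Figure D5:**
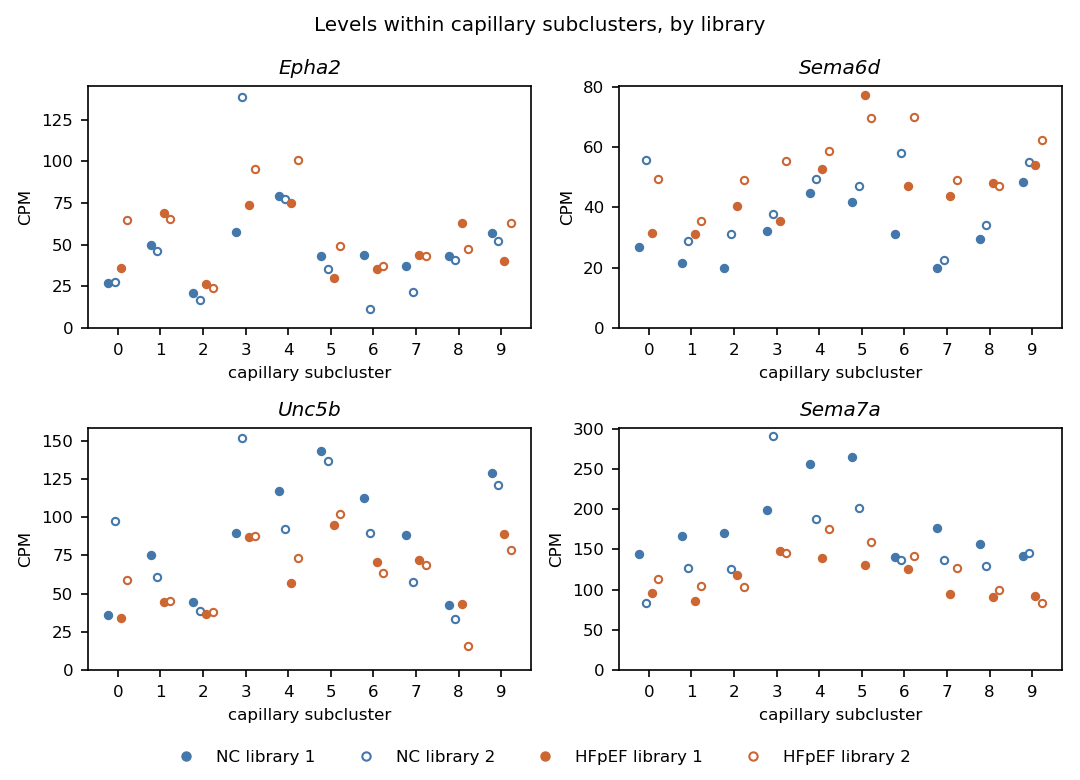
Levels of Epha2, Sema6d, Unc5b and Sema7a (CPM, vertical axes) in the 10 capillary subclusters (horizontal axes); each point is 1 library, blue for NC and orange for HFpEF, filled for replicate 1 and open for replicate 2. Epha2 is highest in subclusters 3 and 4, and the HFpEF mean of Unc5b and of Sema7a lies below the NC mean in 10 of 10 subclusters.

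Of 36 partner genes of these pathways (among them neuropilins, netrin co-receptors and adaptors), 30 were tested in capillary, 26 in artery, 25 in vein and 26 in mural cells, and none was called by edgeR. At an unadjusted p under 0.05, 6, 5, 3 and 5 passed, where 19.8%, 11.7%, 11.2% and 11% of all genes did. Rras, the small GTPase that plexins inactivate, was among the smallest p in each class and was lower in both HFpEF libraries each time. In capillary cells it was at 409 and 321 CPM in NC against 270.1 and 258 CPM in HFpEF after TMM scaling (-0.47, SE 0.13, edgeR adjusted p = 0.137). Nck2, an adaptor bound by ephrin-B and Eph receptors, was at 30.9 and 32.3 against 57.6 and 55.7 CPM in mural cells (0.83, SE 0.21, adjusted p = 0.0681).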

How the data were processed

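Cells of 4 mouse left ventricle libraries were analysed. The authors trimmed reads with fastp, aligned and counted them with Cell Ranger 5.0.1 on mm10, downsampled reads between libraries, and deposited UMI counts per gene and cell, one matrix per library. These counts were used as deposited. Cells with more than 200 genes, less than 20% mitochondrial UMIs (the authors' limits) and less than 1% hemoglobin UMIs were kept. Cells were clustered with scikit-learn 1.9.0 and the Leiden method of python-igraph 0.11.9, without the members and partner genes. Settings were 2000 variable genes, 10 principal components, 20 neighbours and resolution 0.8, and clusters were named from fixed marker lists. Scrublet, run in scanpy 1.11.5, called 0, 0 and 1 doublets among 7114, 6687 and 5440 cells and so had not worked there. In HFpEF 2 it called 3281 of 20588 cells. The expected share of doublets was therefore removed only in an alternative. That share was 405 cells in NC 1, 358 in NC 2, 237 in HFpEF 1 and 3391 in HFpEF 2, and the main fits kept these cells.

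Counts were summed per library and class where every library had at least 20 cells, and fitted with edgeR 4.0.16 (quasi-likelihood, TMM, filterByExpr, Benjamini-Hochberg, threshold 0.05) in R 4.3.3. DESeq2 1.42.0 was an alternative. The summed counts were 6967863 to 30715664 UMIs per library in capillary, 1670750 to 8246881 in artery, 390001 to 1902481 in vein and 716774 to 2331873 in mural cells, so that 3 UMIs correspond to 0.0977 to 0.43 CPM in capillary and 1.58 to 7.69 CPM in vein cells, counting error only. On simulated counts the capillary fit recovered 77.5% of 200 genes changed by 1 on the log2 scale among 12321 genes, with 19 of its 174 calls false, and the vein fit 45.5% among 8993, with 3 of 94 false. For genes changed by 2 these were 96%, with 28 of 220 false, and 90%, with 18 of 198 false, above the 5% aimed at in each case but the vein fit at 1. No exact permutation test of 2 against 2 libraries can give a two-sided p below 0.33. Log2 ratios between classes used 1 added CPM.

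Values are named for the 3 members with the highest level in each class, the 10 with the smallest p in capillary and 5 in each other tested class, and 24 members with a textbook vascular role. Robo2, Sema3a, Sema4d, Sema5a, Sema6b, Efna5 and the lists of members beyond 2-fold were named after their values were seen. The members, partner list and named genes were chosen with earlier results of these data known. Gene positions are from GENCODE vM21 (GRCm38). Promoters are from RefSeq. Endocardial and lymphatic classes were not tested. Left out were the genotype, which the labels do not give, and any comparison by it. Alternatives were another tool, no filter on low counts, the replicate block, each library left out, assignment of each cell by its own marker counts, removal of doublets and thinning to 1500 UMIs.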

Additional observations from a re-analysis of the deposited data

Results flagged for a closer look

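In the main fit the change between HFpEF and NC differed between artery and capillary cells for Epha2 and Unc5b, by the test of the difference itself. Both calls were lost with each cell assigned by its own marker counts (edgeR adjusted p = 0.731 for Epha2 and 0.814 for Unc5b). That of Unc5b was also lost without the expected share of doublets. For Epha2 the artery minus capillary difference was -0.63 on the log2 scale, with HFpEF above NC in both libraries of capillary cells and overlapping diets in artery cells. For Unc5b it was -0.38, with HFpEF below NC in both libraries of artery cells and overlapping diets in capillary cells. With capillary subclusters weighted equally, the log2 ratio of Unc5b in capillary cells was -0.48, beside -0.38 for the fit in artery cells, and that of Epha2 was 0.22, with no test.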

How the results depend on the processing

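Over 27 results for single members and 286 alternatives, no direction reversed, 229 alternatives kept the side of the threshold, 34 passed it only in the alternative and 6 lost it. A further 12 had no adjusted p (7 by DESeq2 and 5 with equal weights) and moved by less than 1 SE of the reported value. The other 5 weighted capillary subclusters equally and moved Epha2, Sema6d, Efna1, Sema7a and Sema4c (0.09) by more than that. The 229 were judged by the threshold only and some moved by more than 1 SE. With each cell assigned by its own marker counts, Ntn4 in vein cells went from 1.85 (SE 0.47) to 0.25. Plxnc1 there went from 1.98 (SE 0.61) to 0.77. Counts of members called depended on the tool and filter. In capillary cells the count of 0 became 3 with DESeq2, 4 without the filter and 2 with cells thinned. It became 3 in artery, 3 in vein and 1 in mural cells without the filter. In vein cells it became 1 with each cell assigned by its own marker counts (52 genes in all). Over all genes in capillary cells, 1 was called by edgeR, 287 by DESeq2, 802 without the filter and 146 with cells thinned. In artery cells 8 became 33 with DESeq2 and 305 without the filter, in vein cells 43 became 13 and 188, and in mural cells 61 became 16 and 194. Leaving out 1 library gave 0 to 2 members in capillary, 0 to 3 in artery, 0 to 1 in vein and 0 to 1 in mural cells, and 0 to 4 for artery minus capillary. In capillary cells 2 were called without NC 2 and without HFpEF 1 (218 and 219 genes in all), in artery cells 1 without NC 1 and 3 without NC 2 (224 and 310 genes), in vein cells 1 without NC 1 (57 genes), and in mural cells 1 without NC 2 and 1 without HFpEF 1 (154 and 151 genes). With 1 library in an arm, that library is assumed to vary like the other diet's. The 2 members called for artery minus capillary became 0 with each cell assigned by its own marker counts and 1 without doublets. Over all genes, 67 calls in that test became 5 and 51. Without doublets Unc5b had an edgeR adjusted p of 0.0819. The vein minus capillary count stayed 0 without the filter, with each cell assigned by its own marker counts and without doublets. At an unadjusted p under 0.05 by edgeR, 2, 3 and 0 members passed there, against 2 in the main fit. The cause of these shifts was not tested.

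Replicate numbers do not pair the libraries by any label, and same-numbered libraries did not deviate together (correlation 0.0174 in capillary, 0.009 in artery, -0.0398 in vein and 0.0048 in mural cells). With the replicate number as a block, 4 members were called in capillary, 1 in artery, 2 in vein and 1 in mural cells, and 521, 84, 133 and 186 genes in all. DESeq2 was not run for the differences between classes, and no diet test was run for endocardial and lymphatic cells, which were too few.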

Other observations

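Among 117 lymphocytes low in endothelial markers (317576 UMIs over 4 libraries), Sema4d, a class 4 semaphorin of T and B cells that binds plexin-B1, was at 47.2 CPM, against 0.0389 CPM in capillary cells and 27.6 CPM in lymphatic cells. Sema4b was at 18.9 CPM in these lymphocytes. Efnb2 was at 22.0 CPM there, from 7 UMIs, and no Sema3g UMI was seen, where 3 counts would correspond to 9.45 CPM. The gene of the receptor, Plxnb1, was at 14.3 CPM in mural cells and 0.324 CPM in capillary cells.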
